A study of Mus musculus with 4 samples.

Results

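The comparison set 11.1 mM against 3.9 mM glucose in mouse islet cells that were all exposed to imeglimin. Its members were the insulin cells of the 2 libraries made with 1 mM imeglimin, 4853 cells at 3.9 mM glucose and 5704 cells at 11.1 mM. These 10557 cells were chosen by RNA content from 17182 usable cells of the 2 libraries, while the series of 4 libraries held 31792 usable cells and 20279 insulin cells. A barcode was used if it had 1000 UMIs or more (unique molecular identifiers, each standing for 1 captured RNA molecule), 500 genes or more and no more than 20% of UMIs from the mitochondrial genome. An insulin cell had 4% or more of its UMIs on the insulin genes Ins1 and Ins2, under 2% on the glucagon gene Gcg, and under 1% each on Sst (somatostatin) and Ppy (pancreatic polypeptide). The islets came from wild-type C57BL6J male mice aged 8 weeks. Imeglimin and either glucose level were present for 24 h of culture, after which the islets were taken apart with Accutase and cells were captured for 3' sequencing on the 10x platform. The other 2 libraries held islets cultured with the DMSO vehicle at the same glucose levels and appear here only beside these. Each condition was 1 library, and nothing in the labels says how many mice gave the islets of a library or whether they were pooled.

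Insulin-secreting beta cells take up glucose and burn it, so that ATP made in glycolysis and in the mitochondria closes a potassium channel, opens calcium channels and releases insulin granules. Over hours, glucose also acts on transcription, through factors such as ChREBP, and insulin synthesis loads the endoplasmic reticulum (ER), where proinsulin folds. Imeglimin is an oral glucose-lowering drug that acts on mitochondria and raises insulin release when glucose is high. The integrated stress response slows protein synthesis when ER folding, amino acid supply or mitochondria fail, and works through the factors ATF4 and CHOP (gene Ddit3).

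With 1 library on each side there was no test, and no replicate checks any difference given here. UMIs were summed over the insulin cells of a library and scaled to counts per 1000000 UMIs (CPM) with TMM factors, which set the bulk of genes equal. Genes at 20 CPM or more in at least 1 of the 2 libraries were compared. A gene that reached 20 CPM in only 1 library was compared because it was high there, so its direction was partly set by this limit, and the numbers of such members are given for the lists where they weigh most. Each ratio is the log2 of the CPM at 11.1 mM over that at 3.9 mM, pairs of CPM are given in the order 3.9 and 11.1 mM, and "past 1.5-fold" is a measure of size. Ranges beside a ratio are 95% counting intervals and cover counting error only, not mice, cultures or the spread between cells.

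The 2 libraries held 91245564 and 106092232 UMIs in 10134 and 8935 barcodes, and shared 24 used barcodes. Insulin cells made up 55.4% of used cells at 3.9 mM and 67.7% at 11.1 mM, with medians of 9552 and 12756 UMIs per cell. At 3.9 mM, 22.8% of insulin cells had under 5000 UMIs or over 5% mitochondrial UMIs, against 8.24% at 11.1 mM. Those cells held 5.02% and 3.92% of the summed UMIs. Without them 956 genes were past 1.5-fold higher and 1499 lower, of 6015. Insulin RNA was also found in other cell classes: endothelial cells had a median of 1.31% insulin UMIs at 3.9 mM and 0.375% at 11.1 mM, with 3589 and 2804 UMIs in the median cell. In the insulin cells, summed acinar markers stood at 565 and 51.2 CPM, endothelial markers at 54.6 and 23.5 CPM, macrophage markers at 30.8 and 24.8 CPM, and neutrophil markers at 0.211 and 11.97 CPM. The B-cell list stood at 14.02 and 3.101 CPM, nearly all of it Cd79a, with Ms4a1 at 0 in both, and the T and NK list at 0.711 and 0.455 CPM, with Cd3e at 0 in both. The part of these transcripts in the results was not tested, except where cells carrying them were left out.

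Insulin cells were chosen on Ins1 and Ins2, so the levels of these genes in them are a description of the chosen cells. The 4% limit cut into the lower end of the 3.9 mM library and hardly into that of the 11.1 mM library. Ins1 stood at 26047 and 83058 CPM, a log2 ratio of 1.67. Ins2 stood at 195628 and 233545 CPM, a log2 ratio of 0.26. In cells with an insulin share of 10% or more the Ins2 ratio was -0.27. That limit is set on insulin itself and left out 37.3% of insulin cells at 3.9 mM and 2.03% at 11.1 mM. A lower ratio was therefore favoured by the limit, and nothing is concluded from it. Iapp, which encodes amylin, the peptide stored and released with insulin, stood at 53429 and 102789 CPM, a log2 ratio of 0.94. Among the insulin transcripts of a single cell, Ins1 was a median of 9.38% at 3.9 mM and 26.2% at 11.1 mM.

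The insulin share of single cells was far more spread at 3.9 mM. The median cell gave 13.9% of its UMIs to insulin at 3.9 mM and 27.5% at 11.1 mM. The 10th and 90th percentiles were 5.24% and 40.8% at 3.9 mM, 7.79 times apart. At 11.1 mM they were 17.5% and 37.8%, 2.16 times apart. The low-glucose library thus held most of the insulin-poor cells and many insulin-rich ones. Cells with under 10% insulin were 37.3% of its insulin cells, against 2.03% at 11.1 mM. Cells with over 30% were 20.3%, against 36.4%. In the deeper cells (5000 UMIs or more and no more than 5% mitochondrial) the percentiles at 3.9 mM were 5.57% and 43.7%. With vehicle at 3.9 mM they were 5.24% and 17.2% over all insulin cells, and 1.48% of cells were over 30%. The limit of 4% that defines an insulin cell lay close to both low-glucose 10th percentiles.

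**Figure D1:**
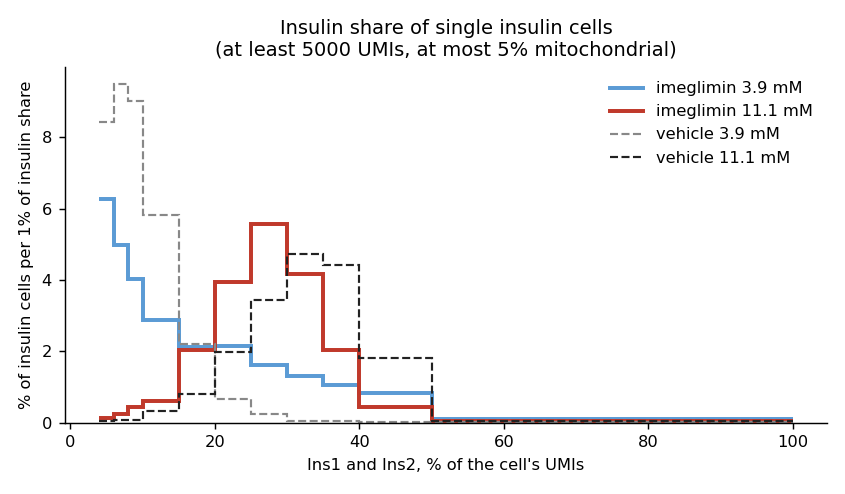
Percent of insulin cells per 1% of insulin share (y axis) against the share of a cell's UMIs on Ins1 and Ins2 in percent (x axis), for deeper insulin cells; solid lines are the 2 imeglimin libraries and dashed lines the 2 vehicle libraries. The imeglimin 3.9 mM line is spread over the axis, with 10th and 90th percentiles of 5.57% and 43.7%, and the 11.1 mM line stands highest between 25% and 30%.

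Across the transcriptome, 983 of 6020 genes (16.3%) were past 1.5-fold higher at 11.1 mM and 1407 (23.4%) past 1.5-fold lower. The median ratio of all compared genes was -0.11. Which side had more genes depended on the scaling. Of the genes past 1.5-fold, 41.1% were higher with TMM, 31% with plain CPM, 55.2% when hormone and mitochondrial genes were left out of the total, and 53.9% with the mean of per-cell CPM. These scalings moved the median of all genes by -0.11, 0.14 and 0.11.

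One of the highest ratios was that of G6pc2, the islet glucose-6-phosphatase, which works against the first step of glucose use. It stood at 26.8 and 776 CPM, a log2 ratio of 4.86 (4.78 to 4.93). In cells drawn down to 5000 UMIs, 10.97% (9.998 to 12.01) held a G6pc2 UMI at 3.9 mM and 80.97% (79.9 to 82) at 11.1 mM, with exact binomial intervals. Glucagon cells, taken as background, gave 2.78% and 7.93% at the same drawn depth, from medians of 7240 and 5776 UMIs. Before drawing down, the insulin-cell shares were 18.4% and 87.9%. Ttyh1, a membrane protein of the tweety family, had 37 and 4312 UMIs over all insulin cells, or 0.725 and 58.5 CPM, a log2 ratio of 6.33 (5.87 to 6.84). Ak4, a mitochondrial adenylate kinase, had 16 and 1797 UMIs, a log2 ratio of 6.28 (5.58 to 7.09). Both were close to absent at low glucose.

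Other genes of the highest 15 covered sugar, lipid and signalling functions. Gys1, glycogen synthase, had a ratio of 4.02. Scd2, which puts double bonds into fatty acids, stood at 20.03 and 172 CPM (3.103). Ffar1, the fatty acid receptor that boosts insulin release, stood at 4.17 and 30.01 CPM (2.85). Nr4a2, an inducible nuclear receptor, stood at 3.04 and 53.1 CPM (4.13) and Pdyn, the precursor of dynorphin peptides, at 15.1 and 144 CPM (3.26). Pde10a, a cyclic nucleotide phosphodiesterase, had a ratio of 2.78, Emilin1 3.96 and Mrln 2.76, and Lrrc10b stood at 18.9 and 151 CPM. Mafa and Bnip3 are also in the set and are given with their groups.

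Of the 15 lowest ratios, 10 belonged to digestive genes of pancreatic acinar cells, led by Ctrb1 at 238 and 13.6 CPM (-4.13). These transcripts sat in very few cells: 43 insulin cells at 3.9 mM with 3 or more acinar markers held 98.01% of acinar-marker UMIs. Without the 7% of cells with the most UMIs, the ratios of all 10 were above 0. The other 5 of the lowest were the small nucleolar RNA host genes Snhg1, Snhg16, Snhg15 and Snhg12, and Derl3. In an alternative added after seeing the data, cells with 3 or more markers of a non-endocrine class (the duct list aside) were left out, and 0 of the 15 lowest were then digestive genes. They then included Gdf15 (-2.67), a stress hormone, Trpm5 (-2.59), a cation channel of the beta-cell membrane, Bbc3 (-2.41), a pro-apoptotic gene, and the circadian factor Hlf (-2.28).

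Glycolysis genes were higher almost throughout. Of 13 compared members, of 19 in the list, 12 were past 1.5-fold higher and 0 lower, with a median ratio of 2.11. Of the 13, 3 reached 20 CPM only at 11.1 mM, the library where they are high. Pfkl and Pfkp, phosphofructokinase subunits of the upper steps, had ratios of 2.02 and 2.29. Of the lower steps, Gapdh stood at 343 and 1488 CPM (2.12), Pgk1 at 81.1 and 514 CPM (2.66) and Eno1 at 49.5 and 243 CPM (2.297). Ldha, which turns pyruvate into lactate and is normally kept off in beta cells, had 85 and 7169 UMIs, or 1.66 and 97.2 CPM (5.87, 5.56 to 6.19), with a level over 10 times higher in another cell class. It was found in 0.368% of drawn-down insulin cells at 3.9 mM and 21.5% at 11.1 mM, against 0.618% and 34.3% of glucagon cells. Glucagon cells held it at least as often, and their other glycolysis genes were higher at 11.1 mM too. Expression by insulin cells and RNA from other cells therefore cannot be told apart from that share, and it is not read as expression by insulin cells. Eno2, the neuronal enolase, was the exception in the list at 24.2 and 20.2 CPM.

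Genes that the hypoxia-inducible factor HIF is known to drive were higher as well: 15 of 17 compared members, of 20 in the list, were past 1.5-fold higher and 0 lower, with a median of 1.42. Of the 17, 6 reached 20 CPM only at 11.1 mM, so their place among the higher genes was favoured by the limit, and 11 reached it in both libraries. Ldha and Pfkfb3 are in both lists. Bnip3, a mitophagy receptor, stood at 73.9 and 481 CPM (2.703, 2.65 to 2.75), and Ero1l, an oxidase that forms disulfide bonds in the ER, at 78.9 and 398 CPM (2.34). Ankrd37 stood at 10.8 and 45.4 CPM (2.07), and Pdk1, the kinase that keeps pyruvate out of the mitochondria, at 12.96 and 49.7 CPM (1.94). The 2 members not past 1.5-fold were Vegfa, the angiogenic factor, at 227 and 260 CPM, and Ndrg1 at 102 and 81.7 CPM.

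Promoter sequence was taken from RefSeq (GRCm38.p6), as the 250 bases before the first listed start of each gene, and searched on both strands. ACGTG, the core of the HIF site, was found in 9 of 14 compared HIF-list members with an entry and in 4 of 13 glycolysis members, against 16.6% of all 27025 promoters. Bnip3, Pgk1 and Ldha are printed 5' to 3', with the matches in capitals, because they are among the higher genes of these lists and hold the motif. CACGTG reads as ACGTG on both strands. The windows lie at chr7:138909507-138909756 on the minus strand for Bnip3, chrX:106186850-106187099 on the plus strand for Pgk1 and chr7:46845554-46845803 on the plus strand for Ldha.
Bnip3: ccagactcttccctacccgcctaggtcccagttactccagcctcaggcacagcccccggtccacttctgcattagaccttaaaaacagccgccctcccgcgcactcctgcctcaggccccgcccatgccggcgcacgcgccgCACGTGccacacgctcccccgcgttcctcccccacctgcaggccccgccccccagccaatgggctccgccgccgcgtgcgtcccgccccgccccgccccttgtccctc
Pgk1: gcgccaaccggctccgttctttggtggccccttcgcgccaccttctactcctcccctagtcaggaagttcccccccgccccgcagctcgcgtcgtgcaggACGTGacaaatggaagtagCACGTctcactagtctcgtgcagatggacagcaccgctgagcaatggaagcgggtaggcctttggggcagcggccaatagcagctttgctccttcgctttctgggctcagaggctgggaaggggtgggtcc
Ldha: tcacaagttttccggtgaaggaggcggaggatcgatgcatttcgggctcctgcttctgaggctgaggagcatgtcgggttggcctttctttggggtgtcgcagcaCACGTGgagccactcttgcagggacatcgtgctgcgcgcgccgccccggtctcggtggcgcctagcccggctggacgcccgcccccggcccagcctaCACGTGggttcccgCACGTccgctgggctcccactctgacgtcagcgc
A match describes the letters only. The windows of Gapdh and G6pc2 held 0 matches.

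Genes of beta-cell identity and function were mostly higher, with 15 of 25 compared members past 1.5-fold higher, 4 lower and a median of 0.67. Mafa, which maintains mature beta cells and binds the insulin promoter, stood at 45.1 and 301 CPM (2.74, 2.68 to 2.802). Pdx1, the factor that specifies pancreas and switches on the insulin genes, stood at 27.02 and 106 CPM (1.97). Slc2a2, the glucose transporter GLUT2, stood at 33.5 and 74.2 CPM (1.15) and Glp1r, the receptor of the incretin GLP-1, at 67.8 and 170 CPM (1.32). The list did not move as a block: Nkx6-1, another mature factor, was at 362 and 330 CPM, and Trpm5 was lower, at 35.8 and 5.995 CPM (-2.58).

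The list of glucose sensing and ChREBP targets was divided, with 4 of 10 compared members past 1.5-fold higher and 4 lower. The list's median of -0.12 turned to 0.02 without hormones and mitochondrial genes in the total and to 0.07 by per-cell means. Txnip, an arrestin-family inhibitor of glucose uptake and a well known ChREBP target in islets, was at 31.2 and 21.2 CPM (-0.56), with a level over 10 times higher in another cell class. Its relative Arrdc4 was at 36.5 and 11.4 CPM (-1.68), and Rgs16, a regulator of G-protein signalling, at 21.9 and 7.46 CPM (-1.55). Mlxipl, which encodes ChREBP, was at 27.9 and 18.3 CPM (-0.61). With vehicle the same glucose step gave Txnip at 9.96 and 59.9 CPM (2.59), in the other direction. With imeglimin the direction of Txnip differed between the lowest and highest bins of insulin share, as given below. The lowest bin held only 87 cells at 11.1 mM, so the value there rests on few cells. At 3.9 mM, cells with over 30% insulin were 20.3% of insulin cells with imeglimin and 1.48% with vehicle. The part of this cell mix in the opposite directions was not tested.

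Secretion genes were higher in several layers. Of 16 compared exocytosis genes, 12 were past 1.5-fold higher and 0 lower, with a median of 0.78. They included Syt13, of the synaptotagmin family, at 138 and 336 CPM (1.28), the priming factors Unc13a (1.35) and Cadps (1.17), and Rab27a (0.97), which docks granules. Of 17 compared granule genes 9 were higher and 1 lower, with a median of 0.94. Among them were Ptprn, a granule membrane protein, at 90.9 and 406 CPM (2.16), Pam, which amidates peptides, at 309 and 1232 CPM (1.99), and the prohormone convertase Pcsk1 at 108 and 302 CPM (1.49). The lower one was Pcsk1n, the inhibitor of that convertase, at 705 and 447 CPM (-0.66).

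Channels and receptors followed. Of 15 compared channel genes 10 were past 1.5-fold higher and 2 lower, with a median of 0.67: Kcnma1, a calcium-activated potassium channel, had a ratio of 1.56 and Cacna1d, a voltage-gated calcium channel, 1.04. Of 9 compared receptor genes 5 were higher and 0 lower, and 2 of the 9 reached 20 CPM only at 11.1 mM. Igf1r, the receptor of insulin-like growth factor 1, was the most abundant of the 5, at 140 and 793 CPM (2.505, 2.47 to 2.54).

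Lipid synthesis was higher at several steps, with 5 of 9 compared lipogenesis genes and 7 of 14 cholesterol genes past 1.5-fold higher, and 1 and 0 lower. Of these, 4 lipogenesis and 2 cholesterol genes reached 20 CPM only at 11.1 mM, which favoured a higher count. Acly, which makes cytosolic acetyl-CoA from citrate, stood at 130 and 397 CPM (1.61) and Fasn, fatty acid synthase, at 6.15 and 23.1 CPM (1.91). Sqle, squalene epoxidase of cholesterol synthesis, stood at 110 and 237 CPM (1.099). The lower one was Elovl7, which lengthens fatty acids, at 42.5 and 13.6 CPM (-1.65).

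**Figure D2:**
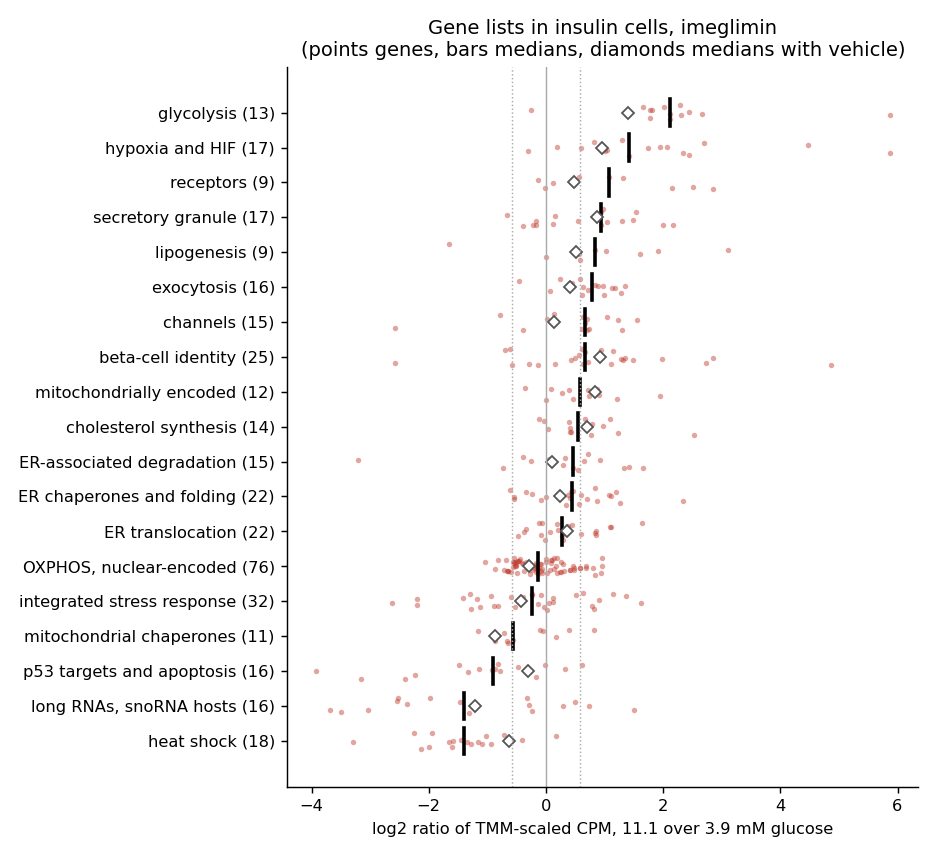
Log2 ratio of TMM-scaled CPM, 11.1 over 3.9 mM glucose (x axis), for the compared genes of 19 lists (y axis) in insulin cells with imeglimin; points are genes, bars list medians, diamonds the medians with vehicle, and dotted lines mark 1.5-fold. The glycolysis median lies at 2.11 and the heat shock median at -1.41. Bars and diamonds cover the same genes, chosen by their CPM in the imeglimin libraries.

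The ER lists were mixed. Of 22 compared chaperone and folding genes, 9 were past 1.5-fold higher and 1 lower, with a median of 0.44. Those higher included P4hb, a protein disulfide isomerase, at 202 and 487 CPM (1.27), and Hyou1, an ER chaperone, at 91.9 and 195 CPM (1.08). Hspa5, the main ER chaperone BiP, was at 2121 and 1796 CPM (-0.24) and Hsp90b1, the ER form of HSP90, at 2440 and 1674 CPM (-0.54). In ER-associated degradation, which removes misfolded proteins, 6 of 15 were higher and 2 lower. Vcp, the ATPase that pulls proteins out of the ER, had a ratio of 1.33, whereas Derl3, a membrane component, was at 51.5 and 5.57 CPM (-3.21, -3.36 to -3.06).

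The integrated stress response did not move in 1 direction. Of 32 compared members, of 41 in the list, 12 were past 1.5-fold lower and 7 higher, with a median of -0.25. Ddit3 was at 1767 and 383 CPM (-2.21, -2.23 to -2.19). Gdf15 was at 55.6 and 8.95 CPM (-2.63), the amino acid transporter subunit Slc3a2 at 614 and 231 CPM (-1.41) and Mthfd2, of mitochondrial one-carbon metabolism, at 464 and 189 CPM (-1.298). Other members were level: Atf4 itself was at 311 and 316 CPM, Nupr1, a small stress-induced chromatin protein, at 1025 and 1114 CPM, and Chac1, which breaks down glutathione, at 54.2 and 51.1 CPM. Members that were higher included Aldh1l2, of mitochondrial folate metabolism, at 25 and 76.9 CPM (1.62), Wars, the tryptophan tRNA synthetase, at 19.5 and 50.3 CPM (1.36), and Atf5 at 185 and 318 CPM (0.78).

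The letters TTGCATCA, a composite element of ATF4 and C/EBP factors, were found on either strand in 4 of 27 stress-response promoters with an entry (Chac1, Atf3, Nupr1 and Aars), against 0.818% of all promoters. Nupr1 is printed because its RNA was level here and lower with vehicle, with its window at chr7:126625471-126625720 on the minus strand and the match in capitals.
Nupr1: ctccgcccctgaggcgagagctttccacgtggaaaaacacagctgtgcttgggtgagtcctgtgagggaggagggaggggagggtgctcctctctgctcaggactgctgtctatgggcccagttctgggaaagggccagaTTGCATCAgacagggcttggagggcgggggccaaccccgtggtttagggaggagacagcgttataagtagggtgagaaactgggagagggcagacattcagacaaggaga
The windows of Ddit3 and Trib3 held 0 matches.

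Cytosolic chaperones were lower almost throughout. Of 18 compared heat shock genes 16 were past 1.5-fold lower and 0 higher, with a median of -1.41. Of the 18, 3 reached 20 CPM only at 3.9 mM and 15 in both libraries. Hspa8, the constitutive HSC70, was at 4103 and 1032 CPM (-1.99, -2.003 to -1.98). Hsp90aa1, the inducible HSP90, was at 3199 and 832 CPM (-1.94), and Dnajb1, a co-chaperone that feeds HSC70, at 171 and 38.9 CPM (-2.13). Stip1, which links both machines, was at 208 and 65.7 CPM (-1.66). Hspa1a and Hspa1b, near-identical neighbouring copies between which reads can be divided either way, were at 40 and 13.4 CPM and at 55.4 and 11.7 CPM. The 2 not past 1.5-fold were Hspa4 at 199 and 149 CPM and Dnajb4 at 21.6 and 24.2 CPM. Cryab was at 26 and 2.66 CPM, but its level was over 10 times higher in another class, and its ratio was 1.04 in cells with an insulin share of 20% to 30%.

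The paired heat shock element, searched as GAANNTTC or TTCNNGAA, was found in 6 of 14 heat shock promoters with an entry, against 12.9% of all promoters. Hsph1, a large HSP70-type chaperone at 278 and 108 CPM (-1.36), is shown as 1 of the 6, at chr5:149636337-149636586 on the minus strand with the match in capitals.
Hsph1: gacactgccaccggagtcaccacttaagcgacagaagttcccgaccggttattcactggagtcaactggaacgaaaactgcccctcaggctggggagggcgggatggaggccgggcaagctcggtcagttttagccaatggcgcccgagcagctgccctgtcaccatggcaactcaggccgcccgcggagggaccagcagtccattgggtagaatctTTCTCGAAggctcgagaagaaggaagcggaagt
The window of Dnajb1 held 0 matches.

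In the p53 and apoptosis list 11 of 16 compared genes were past 1.5-fold lower and 1 higher, with a median of -0.898, and 4 of the 16 reached 20 CPM only at 3.9 mM. Cdkn1a, the p21 cell-cycle inhibitor, was at 336 and 152 CPM (-1.15), Ccng2, an atypical cyclin, at 31.5 and 6.71 CPM (-2.23) and Bbc3 at 35.9 and 6.79 CPM (-2.401). Among nuclear long RNAs and snoRNA hosts 9 of 16 were lower and 2 higher, with a median of -1.39, again with 4 that reached 20 CPM only at 3.9 mM. Snhg1 was at 684 and 52.9 CPM (-3.69, -3.74 to -3.65) and Gas5 at 955 and 385 CPM (-1.31). Neat1, the RNA that builds paraspeckles, was instead higher, at 194 and 553 CPM (1.51), and Malat1 was at 27338 and 23053 CPM (-0.25).

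Of 12 compared mitochondrially encoded transcripts 6 were past 1.5-fold higher and 0 lower, led by mt-Nd3, a complex I subunit, at 126 and 486 CPM (1.94). Of 76 nuclear oxidative phosphorylation genes 8 were higher and 9 lower, shares below those of all genes (16.3% and 23.4%), and their median of -0.14 turned to 0.15 by per-cell means. Mitochondrial chaperones and proteases were lower in 5 of 11 and higher in 1, with Hspe1, of the matrix chaperonin, at 953 and 428 CPM (-1.16) and Hspa9, the matrix HSP70, at 779 and 489 CPM (-0.67).

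Single cells were drawn down to 5000 UMIs each, which left 3809 cells at 3.9 mM and 5490 at 11.1 mM. The 5000 UMIs include Ins1 and Ins2, with median shares over all insulin cells of 13.9% at 3.9 mM and 27.5% at 11.1 mM. Fewer UMIs were thus left for all other genes at 11.1 mM, which lowers the counts of the lists there. The heat shock list had the most one-sided order of cells among the lists. The median cell held 67 (35 to 111) heat shock UMIs at 3.9 mM and 21 (13 to 33) at 11.1 mM, with the 10th to 90th percentile in parentheses here and in what follows. If 1 cell is drawn from each library, the 11.1 mM cell holds more in 4.63% of pairs, with ties shared. At 11.1 mM, 0.656% of cells were above the 3.9 mM median, so the lower sum lay across the library and not in a few cells.

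Glycolysis was less complete cell by cell. The median cell held 6 (3 to 11) glycolysis UMIs at 3.9 mM and 20 (6 to 50) at 11.1 mM, and the 11.1 mM cell held more in 87.7% of pairs. The 10th percentile at 11.1 mM equalled the median at 3.9 mM, so the lowest cells at high glucose overlapped with low glucose while the highest reached far beyond it. Genes of the HIF list had medians of 6 (2 to 10) and 12 (4 to 36) UMIs. Across the cells of the 11.1 mM library, the glycolysis and HIF lists without their 2 shared genes had a Spearman rho of 0.84 (5490 cells). At 3.9 mM it was 0.25 (3809 cells). These cells share a library and a drawn depth, and the values are descriptions. At 3.9 mM both full lists had a median of only 6 UMIs per cell, and counting error on so few UMIs lowers a rho. The 2 values therefore cannot show whether the lists went together more closely at 11.1 mM.

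The integrated stress response overlapped more between the libraries, with medians of 38 (18 to 62) and 22 (11 to 39) UMIs and the 11.1 mM cell higher in 23.1% of pairs. Within it, Ddit3 had 8 UMIs in the median cell at 3.9 mM and 1 at 11.1 mM. Summed granule genes had medians of 317 (210 to 444) and 528 (359 to 690), but most of that sum was Iapp. The other 16 granule genes had medians of 58 (38 to 84) and 65 (46 to 95), and the 11.1 mM cell was higher in 62.8% of pairs, in an alternative added after seeing the data. ER chaperones had medians of 50 (30 to 80) and 46 (25 to 81), nearly the same range. Mt1 and Mt2, metallothioneins that bind zinc and copper, made up nearly all of the summed metallothionein and zinc genes, with medians of 116 (61 to 174) and 52 (17 to 104). The 6 zinc transporters of that list, summed, had a median of 2 UMIs in both libraries, and over the list as a whole 4 of 8 genes were past 1.5-fold higher and 3 lower.

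**Figure D3:**
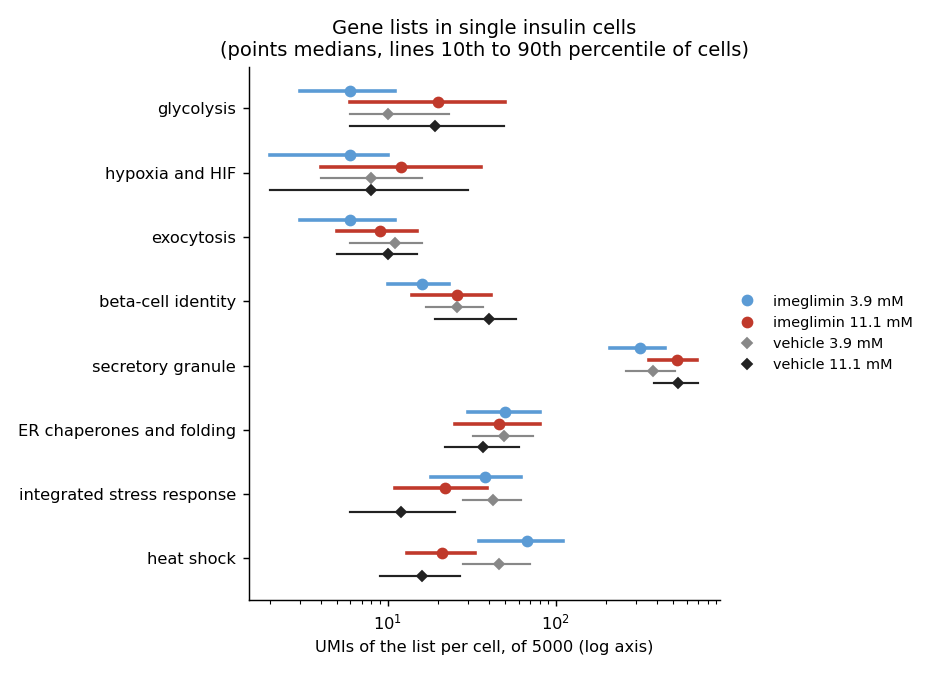
UMIs of each list per insulin cell drawn down to 5000 UMIs (x axis, log scale) for 8 lists (y axis) in the 4 libraries; points are medians over cells and lines run from the 10th to the 90th percentile of cells, not an error of a mean. For heat shock the imeglimin lines run from 35 to 111 at 3.9 mM and 13 to 33 at 11.1 mM, and for glycolysis from 3 to 11 and 6 to 50; the secretory granule sum is mostly Iapp.

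The 2 libraries were almost fully apart in expression space. In 3000 cells from each, 98.8% of the 15 nearest neighbours of a cell came from its own library, where equal mixing would give 50%. Leaving out Ins1 and Ins2 gave 98.9%. The 2 vehicle libraries gave 98.95% and 98.7%. A difference between glucose levels and one between library preparations cannot be told apart here.

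Within the 3.9 mM library, the insulin share of a cell went with much of its other RNA. With each list taken as a share of non-insulin UMIs (3809 cells of 1 library at 1 drawn depth), Spearman's rho with the insulin share was 0.64 for ER chaperones, 0.76 for granule genes without Iapp (0.52 with it), 0.51 for ER translocation and 0.47 for identity genes. It was -0.51 for the integrated stress response, -0.35 for NRF2 targets and -0.22 for heat shock. Insulin-rich cells at low glucose thus held more summed transcripts of the folding machinery and fewer of the stress list. Single members differed. In the stress list rho was -0.42 for Nupr1, -0.33 for Ddit3, -0.24 for Chac1, -0.10 for Slc3a2, and -0.02 for both Atf4 and Mthfd2. Among identity genes it was 0.24 for Nkx6-1, -0.05 for Mafa and -0.22 for Glp1r. Counting error on few UMIs can lower the rho of a single gene. At 11.1 mM with imeglimin the list values were 0.26 for ER chaperones and 0.08 for the stress response, and with vehicle at 3.9 mM 0.07 and -0.06. In those libraries the 10th and 90th percentiles of insulin share were only 2.16 and 3.29 times apart, against 7.79. A narrower range can bring a rho nearer to zero, and its part in these differences was not tested.

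Cells were therefore also compared within bins of insulin share, among deeper cells and as CPM of non-insulin UMIs, an alternative chosen after seeing the data. The bins were 4% to 10%, 10% to 20%, 20% to 30% and 30% or more. Shares still differed within the end bins, with medians of 6.46% and 8.25% in the lowest and 40.7% and 34.3% in the highest. The part of this in the differences was not tested. The lowest bin held 1145 cells at 3.9 mM and only 87 at 11.1 mM, and the highest 960 and 1970, so values at 11.1 mM in the lowest bin rest on few cells. Summed glycolysis transcripts were at 1782 and 10881 in the lowest bin and 1509 and 5955 in the highest, and were higher at 11.1 mM in all 4. Summed transcripts of the integrated stress response at 3.9 mM went down over the bins, at 11346, 10523, 9109 and 7678. At 11.1 mM they stayed between 6397 and 6995. The glucose difference of this list was thus larger in the insulin-poor cells, with a median gene ratio of -0.502 in the lowest bin and -0.03 in the highest. Nupr1 turned with the bin, at 1884 and 1179 in the lowest and 401 and 1587 in the highest. Ddit3 did not, at 2627 and 713 and 1688 and 492. Txnip turned the other way, at 12.7 and 28.5 in the lowest and 89.6 and 26.6 in the highest.

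The same glucose step with vehicle, in 2 other libraries, gave a similar order of genes. With vehicle, 651 of 5893 genes (11%) were past 1.5-fold higher and 1003 (17%) lower. Across the 5561 genes compared in both, the 2 sets of ratios had a Pearson r of 0.71 and a Spearman rho of 0.68, a description over genes that are not independent replicates. Of these, 414 genes were higher in both, 43.8% of the 946 higher with imeglimin and 71.1% of the 582 higher with vehicle. Another 578 were lower in both, 48.7% of 1188 and 62.02% of 932. The ratios spread wider with imeglimin, with an SD over genes of 0.73 against 0.605.

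Several groups had larger ratios with imeglimin and others smaller, and these differences were not tested. Glycolysis had a median gene ratio of 2.11 with imeglimin and 1.41 with vehicle, exocytosis 0.78 and 0.41, and heat shock -1.41 and -0.63. The vehicle medians cover the genes that reached 20 CPM in an imeglimin library, a choice that favoured larger ratios with imeglimin. Of these, 3 of 13 glycolysis, 1 of 16 exocytosis and 3 of 18 heat shock genes reached it in only 1 imeglimin library. Per drawn-down cell, median heat shock UMIs went from 67 to 21 with imeglimin and 46 to 16 with vehicle. The 11.1 mM cell held more in 4.63% and 5.84% of pairs. Exocytosis went from 6 to 9 and 11 to 10 (71.55% and 43.24%), and glycolysis from 6 to 20 and 10 to 19 (87.69% and 68.41%). Insulin UMIs count in the drawn depth, which lowers these counts at 11.1 mM, and the median insulin share rose more with vehicle. In the integrated stress response 7 of 32 compared members were past 1.5-fold higher with imeglimin and 1 with vehicle, while 12 were lower in each. Over all 6020 genes, chosen in the imeglimin libraries as the 32 were, 983 were higher with imeglimin and 619 with vehicle. Lower were 1407 and 994. Nupr1 was 0.12 with imeglimin and -2.57 with vehicle, where it stood at 1868 and 314 CPM, and Trib3, an inhibitor of AKT induced by CHOP, -0.597 and -2.22. Ins1 and Ins2 were 1.67 and 0.26 with imeglimin and 3.32 and 1.66 with vehicle, where they stood at 11974 and 119534 CPM and at 80188 and 252601 CPM. Igf1r was 2.505 with imeglimin and 0.38 with vehicle, at 286 and 373 CPM. Pdx1 (1.97 and 2.05) and Mafa (2.74 and 2.701) had nearly the same ratio in both.

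**Figure D4:**
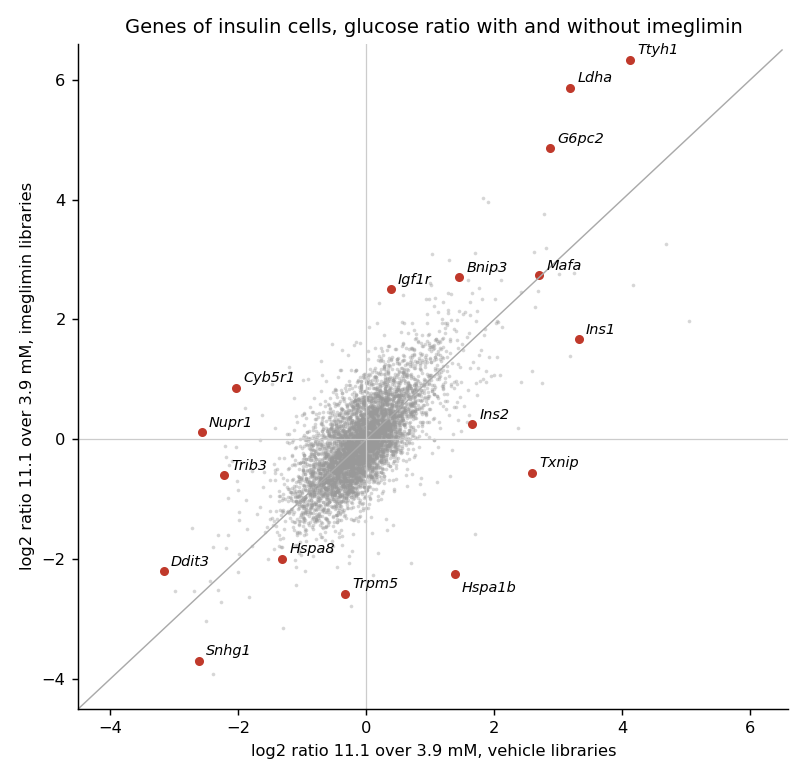
Log2 ratio 11.1 over 3.9 mM glucose in insulin cells with imeglimin (y axis) against the same ratio with vehicle (x axis), 1 point per gene for 5561 compared genes; the line marks equal ratios. Nupr1 lies above the line, at 0.12 and -2.57, and Txnip below it, at -0.56 and 2.59.

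Other endocrine cells of the same libraries shared part of this pattern. Glucagon cells (5% Gcg or more, 1138 and 780 cells) had 91 of 3275 genes at 50 CPM or more (2.78%) past 1.5-fold higher and 184 (5.62%) lower. Somatostatin cells (61 and 121 cells) had 329 of 3498 (9.41%) higher and 229 (6.55%) lower. All 11 compared glycolysis genes were past 1.5-fold higher in both classes, with medians of 1.72 and 1.89. Pgk1 stood at 79.3 and 372 CPM in glucagon cells and 63.3 and 346 CPM in somatostatin cells. The HIF target Ankrd37 stood at 6.94 and 66.3 CPM (3.26) in glucagon cells and, on 6 and 85 UMIs, at 13.6 and 123 CPM (3.18) in somatostatin cells.

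The stress lists differed between classes. In glucagon cells 24 of 27 compared stress-response genes were past 1.5-fold lower and 0 higher (median -0.92), where the same genes had a median of -0.397 in insulin cells. Trib3 was at 78.7 and 21.6 CPM (-1.86) there, and Atf5 at 298 and 86.8 CPM (-1.78), against 0.78 in insulin cells. In somatostatin cells 14 of 25 were lower and 0 higher (median -0.605). Heat shock had medians of -0.46 and -0.16 in the 2 classes, against -1.36 and -1.25 for the same genes in insulin cells. Hspa8 was at 1721 and 923 CPM in glucagon cells and 1228 and 1000 CPM in somatostatin cells. Igf1r, whose ratio was 2.505 in insulin cells, was at 244 and 239 CPM in somatostatin cells. Txnip was at 64.8 and 126 CPM in glucagon cells (0.95). These differences between classes rest on 1 library a side and were not tested.

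**Figure D5:**
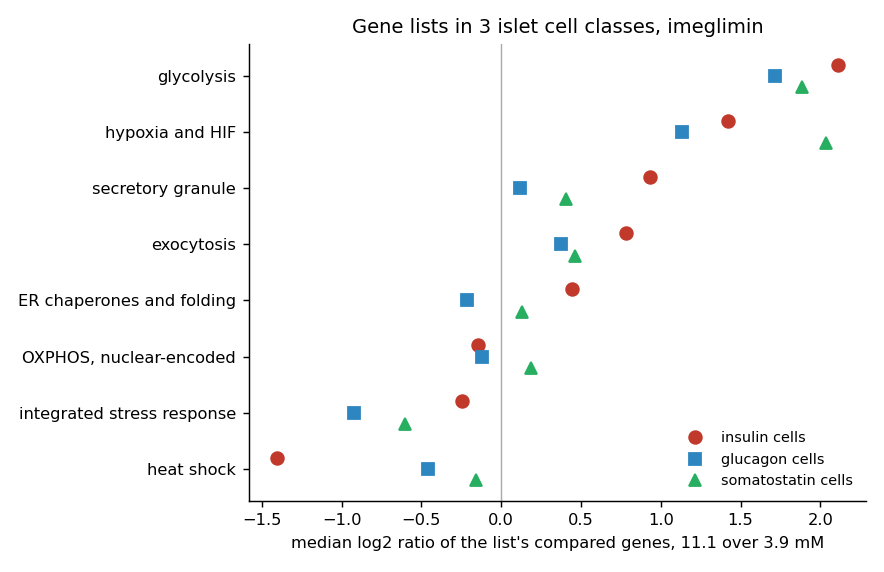
Median log2 ratio, 11.1 over 3.9 mM glucose with imeglimin (x axis), of the compared genes of each list (y axis) in insulin, glucagon and somatostatin cells; each class has its own set of compared genes, at 20 CPM for insulin cells and 50 CPM for the others. Glycolysis lies between 1.72 and 2.11 in the 3 classes, while heat shock is at -1.41 in insulin cells, -0.46 in glucagon cells and -0.16 in somatostatin cells.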

How the data were processed

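The authors deposited raw counts, as UMIs per gene and barcode, made with Cell Ranger 6.0.2 on mm10, per the submitters' processing notes; how they called cells is not given in the sources used here. Barcodes and insulin cells were chosen by the limits in the report. No doublet caller was run, and an alternative left out the 7% of insulin cells with the most UMIs. UMIs were summed per library and class and scaled with TMM (edgeR 4.0.16, R 4.3.3) over the 4 insulin-cell sums. Ratios carry exact conditional binomial intervals and shares Clopper-Pearson ones. A sum of 0 was replaced by 3 UMIs. The ratio script was tested on simulated data.

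The text names, first, the 15 genes at either end of the ratios, past 1.5-fold and in the same direction by plain CPM and per-cell means, without gene models, mt- genes and genes over 10 times higher in another class (50 cells or more). Second come up to 6 members of each of 36 lists in the direction of the list's median and the largest in the other, genes of a fixed list, and up to 5 genes each way in the other endocrine classes. Further list members were named after their values were seen, and a few genes that the rule picks are not reported here. The members and lists were chosen with earlier results of these data known. For single cells, 1044 and 214 insulin cells under 5000 UMIs were left out. Neighbours used 30 principal components of 2000 genes (Python 3.11.15, scikit-learn 1.9.0).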

Additional observations from a re-analysis of the deposited data

Results flagged for a closer look

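In insulin cells, 5561 genes reached 20 CPM in both comparisons. Of them, 414 were past 1.5-fold higher in both and 578 lower in both, and 24 were past 1.5-fold in opposite directions for the same glucose step. Each of the 24 is given as its log2 ratio with imeglimin and then with vehicle. Each side is 1 library against 1, and the difference was not tested. Of these, 10 were lower with imeglimin and higher with vehicle. The inducible heat shock genes were Hspa1b -2.24 and 1.38, and Hspa1a -1.58 and 1.699, on near-identical copies. The immediate early factors were Jun -2.07 and 0.704, with a level over 10 times higher in another class, and Junb -0.91 and 0.91. The transferrin receptor gene gave Tfrc -0.61 and 1.32, the enzyme that removes O-GlcNAc Oga -0.72 and 1.10, and the others Elf3 -0.78 and 0.64, Aldh5a1 -0.74 and 0.84, Zfp568 -0.65 and 0.85 and Usp29 -0.597 and 0.62.

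The other 14 were higher with imeglimin and lower with vehicle. The largest were Pitpnm2 1.31 and -0.71, Hfe 1.204 and -1.21, Fam129a 1.12 and -1.19, Smim4 1.08 and -0.69, Reep6 0.998 and -0.91, Tmem97 0.996 and -0.995, Zbtb8os 0.97 and -0.63, Tenm4 0.92 and -1.47 and Cyb5r1 0.86 and -2.03. The smaller ones were S100a1 0.798 and -0.701, Pard3b 0.69 and -1.12, Itgb5 0.68 and -0.81, Tsga10 0.59 and -0.73 and, for the ER stress sensor IRE1, Ern1 0.64 and -0.64.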

How the results depend on the processing

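Among genes with at least 5 CPM, 1787 genes were past 1.5-fold higher and 1960 lower, of 9759. With 50 CPM, 513 were higher and 823 lower, of 3155, a smaller set by construction. Plain CPM gave 781 higher and 1738 lower, totals without hormone and mitochondrial genes 1279 and 1038, and per-cell means 1171 and 1002. In the other cell sets, which were higher insulin limits, deeper cells, cells without other markers, cells without the highest UMIs and thinned cells, 956 to 1159 genes were higher and 1361 to 1647 lower. In cells with an insulin share of 20% to 30% the ratios of digestive genes turned positive, at 0.82 for Cela3b, 1.49 for Cpa1, 0.76 for Try4, 0.697 for Prss2, 0.71 for Sycn, 0.46 for Ctrb1, 0.16 for Cela1, 1.27 for Clps and 0.81 for Pnlip, and Cryab turned to 1.04. Without the 7% of cells with the most UMIs they were 0.55 for Cela3b, 0.94 for Cpa1, 0.66 for Try4, 0.44 for Prss2, 0.77 for Reg1, 1.38 for Sycn, 0.46 for Ctrb1, 0.58 for Cela1, 1.09 for Clps and 1.16 for Pnlip; the cause of these turns was not tested. The MAP kinase feedback list, at -1.16 in the report's setting, had a median of 0.24 at 5 CPM and 0.57 at 50 CPM, over other sets of genes. The glycolysis, HIF, exocytosis, heat shock and integrated stress response medians kept their sign under every alternative run. Shares of cells with a UMI kept their direction at 3000 UMIs for 252 of 263 named genes. No paired analysis was possible because each condition is 1 library and no test was made. Counts of a few UMIs, as in somatostatin cells, limit those ratios.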

Other observations

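Metal-handling genes went apart between the glucose levels. Mt1 and Mt2, the metallothioneins that bind zinc and copper, were at 17112 and 9477 CPM (-0.85) and at 5998 and 1989 CPM (-1.59) in insulin cells with imeglimin. With vehicle their ratios were -2.01 and -2.31. Of the zinc transporters, Slc30a8, which loads insulin granules, was at 210 and 233 CPM, whereas Slc39a7 was at 39.1 and 109 CPM (1.48) and Slc30a7 at 10.2 and 31.6 CPM (1.63). G1 cell-cycle genes were also divided: the cyclin Ccnd1 was at 74.7 and 176 CPM (1.24), and the inhibitors Cdkn1b and Cdkn2d were at 110 and 67.9 CPM (-0.69) and at 29.1 and 12.4 CPM (-1.23).

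Of 11 compared purine and NAD genes, 6 were past 1.5-fold lower and 2 higher. Adss, which makes adenylosuccinate, was at 60.5 and 26.01 CPM (-1.22) and Impdh2, of guanine nucleotide synthesis, at 64.4 and 37.2 CPM (-0.79), while its relative Impdh1 was at 17.1 and 43.02 CPM (1.33). In the interferon and antigen presentation list 6 of 14 were lower and 2 higher, but 8 of the 14 were over 10 times higher in another class. H2-K1, a class I antigen-presenting chain, was at 534 and 867 CPM (0.70). In the MAP kinase feedback list 4 of 7 compared genes were past 1.5-fold lower and 3 higher, of which 3 reached 20 CPM only at 3.9 mM and 3 only at 11.1 mM. The inhibitors Dusp16, Dusp5, Dusp4 and Spry2 were lower (-1.902, -1.33, -1.16 and -2.04). Etv1 (2.47), Ier3 (2.42) and Errfi1 (0.99) were higher, the first 2 with levels over 10 times higher in another class. Jund, an AP-1 subunit, was at 1005 and 439 CPM (-1.196) and Crem, a cyclic AMP response factor, at 21.7 and 69.01 CPM (1.67). In the autophagy list Wipi1, which acts in early autophagosomes, was at 18.4 and 65.9 CPM (1.84) and Map1lc3b, which coats them, at 345 and 190 CPM (-0.86).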
